A study of Mus musculus with 2 samples.

Results

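The regions described here are the 1000 strongest distal sites of open chromatin in mouse hippocampus, out of 21426 distal sites and 37119 sites found in both libraries. DNase-seq, which maps the DNA that the nuclease DNase I can reach in nuclei, was applied to 2 libraries, biological replicates 1 and 2, of tissue labelled as a layer of hippocampus with the layer unnamed. Both came from females of the strain B6CASTF1/J, a cross of C57BL/6 with wild-derived CAST mice, aged 25 days, and the labels name no treatment. They form 1 group and carry the same donor entry, and the labels do not say whether they came from different animals, so their spread may be technical in part and nothing here compares conditions.

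A site counted as shared where peaks of both libraries' stricter lists overlapped by at least 1 bp, and as distal where it was autosomal and more than 500 bp from every transcript start of the protein-coding and lncRNA genes in GENCODE M21. Each library's highest peak signal in the region, in the authors' deposited units of unstated scale, was ranked over the distal regions, and the 1000 with the best mean rank were kept. The members were thus selected on signal, which is given below only as a description. Sequence and the identity of nearby genes did not enter the choice, and position did so only through the autosomal and 500 bp limits. Replicate 1 had 61466 peaks and 236942 footprints, and replicate 2 had 50379 peaks and 159538 footprints. The files used hold no tag counts, so depth is unknown.

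Among the marker genes checked, the promoters open in both libraries were mostly those of neurons. All 4 pan-neuronal markers had a peak of both libraries within 500 bp of a start, as did 5 of 7 markers of hippocampal and forebrain excitatory neurons (Emx1, Neurod2, Neurod6, Zbtb20 and Camk2a). Prox1 and Slc17a7 had none in the stricter lists. Of the astrocyte markers 1 of 4, Gfap, was open by the same measure, and none of the 4 oligodendrocyte, 4 microglial and 3 endothelial markers was, nor any of the 6 markers of liver, muscle or blood cells.

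Distal open regions are where most enhancers and insulators lie. CTCF is a zinc-finger protein that binds a long motif at insulators and chromatin loop anchors and is present in nearly every cell type, so that many of its sites are open in many tissues. tRNA genes are short genes of RNA polymerase III whose promoter, an A box and a B box, lies inside the transcribed sequence, and they are open wherever they are transcribed. Enhancers particular to forebrain neurons, in contrast, often carry E-boxes read by factors such as NEUROD and motifs read by MEF2 or AP-1.

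The sequences that stand for the largest class of members are those of the CTCF matches. The 6 best-ranked members outside exons and with a match are shown on the strand of the match, in mm10 as given by the RefSeq assembly GRCm38.p6, with 15 bases on each side. Capitals mark the 13 letters of the match, of which 1 may differ from the consensus.
Region 7 (chr8:20424854-20424896, minus strand): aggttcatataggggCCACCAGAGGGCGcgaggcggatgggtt
Region 9 (chr8:20122184-20122226, plus strand): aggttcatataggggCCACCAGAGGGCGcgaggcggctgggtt
Region 15 (chr8:94704197-94704239, plus strand): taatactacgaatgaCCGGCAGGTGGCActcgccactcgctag
Region 17 (chr4:151141705-151141747, minus strand): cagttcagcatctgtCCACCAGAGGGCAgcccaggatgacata
Region 18 (chr16:18443646-18443688, plus strand): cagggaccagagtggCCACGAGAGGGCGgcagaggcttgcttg
Region 20 (chr19:10709510-10709552, minus strand): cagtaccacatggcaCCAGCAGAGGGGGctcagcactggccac
Of these, 3 matched the consensus exactly and 3 at all but 1 letter. In 4 of the 6 (regions 15, 17, 18 and 20), a single stretch covered by footprints of both libraries, that is a run of bases protected from cutting within open chromatin, ran from the first base shown to a base between 37 and 40, so that the whole match, bases 16 to 28, lay inside it.

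The second class is shown by tRNA genes, printed on the gene's own strand with an exact B box match (GTTCGANTC) in capitals. These 5 are the genes in the best-ranked members outside exons that overlap a tRNA gene of RefSeq. An overlap of 1 bp sufficed, and the gene in region 15 reaches past the region, with its B box outside it.
n-TLcag4, tRNA-Leu CAG, in region 15 (chr8:94704004-94704086, minus strand): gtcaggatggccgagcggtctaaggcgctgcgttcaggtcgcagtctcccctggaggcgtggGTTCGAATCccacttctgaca
n-TTagt9, tRNA-Thr AGT, in region 33 (chr7:35234770-35234843, minus strand): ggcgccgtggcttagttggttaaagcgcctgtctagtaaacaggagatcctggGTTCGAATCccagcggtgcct
n-TRccg1, tRNA-Arg CCG, in region 36 (chr11:107012866-107012938, plus strand): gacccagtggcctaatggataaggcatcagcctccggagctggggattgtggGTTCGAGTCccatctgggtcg
n-TTcgt5, tRNA-Thr CGT, in region 68 (chr16:13437323-13437394, plus strand): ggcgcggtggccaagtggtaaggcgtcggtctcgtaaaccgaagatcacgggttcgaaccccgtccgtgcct
n-TIaat17, tRNA-Ile TAT, in region 71 (chr17:83861944-83862036, plus strand): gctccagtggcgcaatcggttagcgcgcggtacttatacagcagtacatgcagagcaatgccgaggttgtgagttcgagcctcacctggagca
An exact B box match was present in 3 of the 5.

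The members that hold neither a CTCF match nor a tRNA gene are shown by 200 bases around the centre of the 3 best ranked of them that had no repeated sequence and lay outside exons, on the plus strand, with every match to a searched motif in capitals.
Region 16 (chr15:78532181-78532380): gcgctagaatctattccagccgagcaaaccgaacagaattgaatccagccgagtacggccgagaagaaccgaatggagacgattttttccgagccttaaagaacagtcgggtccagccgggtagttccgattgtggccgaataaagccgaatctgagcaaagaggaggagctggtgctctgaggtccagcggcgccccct
Region 19 (chr12:8640971-8641170): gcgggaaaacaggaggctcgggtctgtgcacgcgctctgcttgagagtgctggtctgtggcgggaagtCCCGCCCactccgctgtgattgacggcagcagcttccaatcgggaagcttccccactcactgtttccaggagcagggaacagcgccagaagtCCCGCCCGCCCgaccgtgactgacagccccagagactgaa
Region 22 (chr1:86487451-86487650): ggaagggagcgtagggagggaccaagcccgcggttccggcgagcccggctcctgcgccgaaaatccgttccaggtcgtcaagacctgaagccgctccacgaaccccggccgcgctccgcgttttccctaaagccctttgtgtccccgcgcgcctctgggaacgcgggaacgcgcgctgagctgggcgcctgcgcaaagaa
Within these 200 bases, regions 16 and 22 held none of the 31 motifs searched, and region 19 held 3 matches to the SP/KLF GC box, of which 2 overlap. All 3 regions are wider than the 200 bases on which the absence of a match rests. Footprints of both libraries covered 75, 82 and 63 of the 200 bases.

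Members had a median peak signal of 9.67 in replicate 1, with a lowest value of 6.27 and a highest of 48.9. In replicate 2 their median was 2.22, with a lowest value of 1.62 and a highest of 25.2. The other distal regions had medians of 1.87 and 0.836. At 998 of the 1000 members replicate 1 had the higher value, with a median ratio of 4.31 (interquartile range 3.58 to 5.08), against 2.23 at the other distal regions. The libraries differed in level at nearly every member, and the deposited scaling does not say how such levels compare.

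The order of the regions also differed between the libraries. Of the 1000 strongest distal regions of each library taken alone, 528, or 52.8% of either list, were common. Of the members, 770 stood in the list of replicate 1, 709 in that of replicate 2 and 49 in neither. At the threshold, the last region but 1 inside (chromosome 8, 122281361 to 122281640, in an intron 0.501 kb upstream of Zfpm1) had signals of 6.47 and 2.52, and region 1000 (chromosome 11, 94277081 to 94277280) had 6.49 and 2.47. Just outside, region 1001 (chromosome 15, 36578641 to 36578840) had 9.45 and 1.66, and the next, in an exon of Klf1 (chromosome 8, 84903081 to 84903300), had 7.50 and 1.91. Regions 1000 and 1001 had the same mean rank, 1309.25, and were ordered by chromosome.

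**Figure D1:**
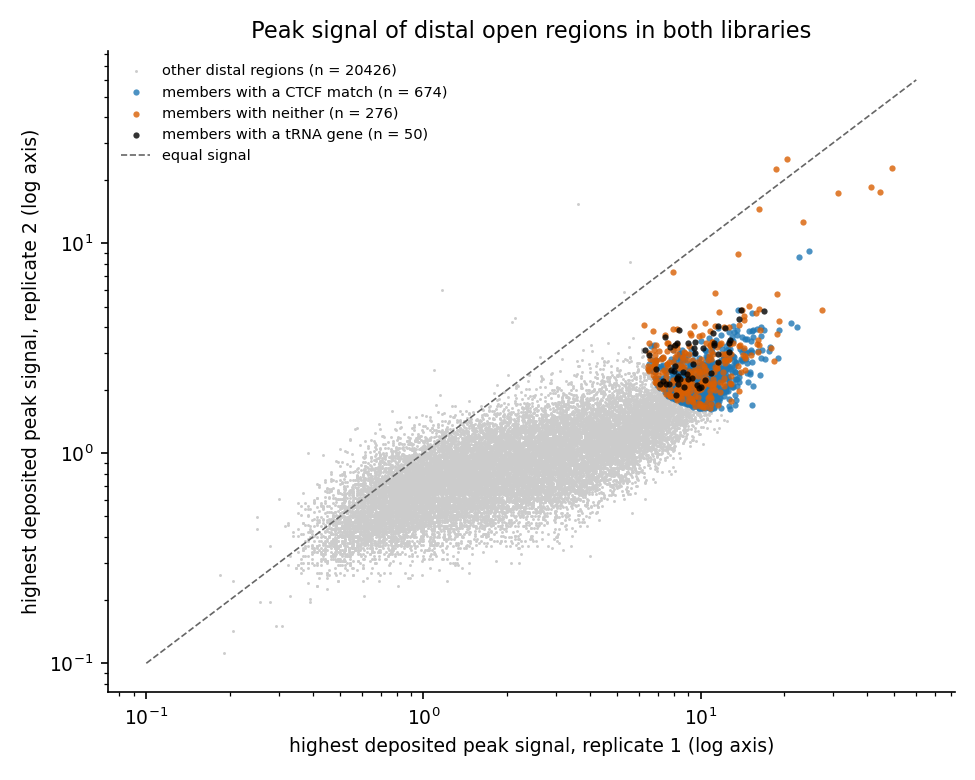
Highest deposited peak signal of each autosomal distal region in replicate 1 (x axis) and replicate 2 (y axis), both on log axes in the authors' units. Grey points are the 20426 other distal regions, and coloured points are the members by class (CTCF match without a tRNA gene, tRNA gene, neither). All but 2 members lie below the line of equal signal, and of the 10 best-ranked members, at the upper right, only regions 7 and 9 hold a CTCF match.

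The few members far above the rest were mostly sequence that occurs more than once in the genome. Of the 10 best ranked, 9 held stretches of 36 bases that recur exactly elsewhere, at 5 to 18 other places. In 8 of these 9 the recurring stretches made up 51.0% or more of the region, and in region 10 they made up 24.8%. Tags from such sequence cannot be assigned to 1 place, so these signals may belong to several copies.

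Region 1, in an exon of Lars2, the mitochondrial leucyl-tRNA synthetase gene, had signals of 48.9 in replicate 1 and 22.9 in replicate 2 (chromosome 9, 123461881 to 123462140). Region 2 had 41.2 and 18.5 (chromosome 16, 35981661 to 35981840). It lay within both Kpna1, an importin gene, and the antisense gene Gm15564, in exonic sequence of at least 1 of them. Region 3, 21.5 kb upstream of Igf2bp3, an RNA-binding protein gene, had 44.5 and 17.6 (chromosome 6, 49236421 to 49236620). Those of the 36-base stretches of region 1 that also stood in region 2 were 20.9%, and those that stood in region 3 were 12.4%. The longest identical run of regions 1 and 2 was 77 bases.

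Region 31, in an intron of Gphn, the gene of the inhibitory synapse scaffold gephyrin, had signals of 13.7 and 8.86 (chromosome 12, 78350861 to 78351100), and 39.0% of its 36-base stretches stood in region 3. The run of 104 bases that both hold, at chr6:49236514-49236617 and on the opposite strand at chr12:78350950-78351053, shows how such members repeat each other.
Regions 3 and 31: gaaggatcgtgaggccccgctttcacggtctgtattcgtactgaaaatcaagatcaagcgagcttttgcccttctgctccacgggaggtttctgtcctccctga

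Region 4, in an intron of Il31ra, a cytokine receptor gene, had signals of 31.2 and 17.3 (chromosome 13, 112578161 to 112578320) and recurred at 15 other places. Region 6, in an intron of Zc3h7a that also holds the microRNA gene model Gm23935, had 23.5 and 12.7 (chromosome 16, 11144171 to 11144320). Region 8, the most repeated of the 10 with every 36-base stretch found elsewhere, had 18.8 and 22.5 and lay 110 kb from the nearest protein-coding start, that of Gm8797 (chromosome 3, 5860361 to 5860530). Region 10, in an intron of Jarid2, a cofactor of the Polycomb complex PRC2, had 27.3 and 4.84 (chromosome 13, 44869561 to 44869700).

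Regions 7 and 9 were the only ones of the 10 with a CTCF match. Region 7, at a transcribed pseudogene, 2610005L07Rik, had signals of 24.5 and 9.18 (chromosome 8, 20424721 to 20424940), and region 9 had 22.6 and 8.59 (chromosome 8, 20122141 to 20122300). Their matches are printed above, and both stand within an identical run of 61 bases, so the same copies may feed both values.

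Region 5 was the single one of the 10 with no repeated stretch. It lay in an exon of Cers5, a ceramide synthase gene, 10023 bp from the start of Cox14, an assembly factor of cytochrome oxidase (chromosome 15, 99735641 to 99736060), with signals of 20.5 in replicate 1 and 25.2 in replicate 2. It was also the 1 member without a footprint in replicate 2, where it had 0 footprints against 5 in replicate 1. Region 12, in an exon of Ubqln1, an adaptor of the proteasome, likewise had no repeated stretch, with signals of 16.3 and 14.6 (chromosome 13, 58177581 to 58177820).

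Over all members, repeated sequence was uncommon. At least 50% of the 36-base stretches recurred in 15 members, or 1.5%, against 0.7% of all distal regions (0.661% of the others), and 88 members, or 8.8%, held any such stretch, against 6.07% of all distal regions. No member and no other distal region shared 36 bases with the mitochondrial genome. Among 64 annotated ribosomal RNA genes searched, Rn4.5s, the 4.5S RNA gene, shared a stretch with 3 members and with 3 of the other distal regions. Rn18s-rs5 shared one with no member but with the distal region ranked 11773. No complete ribosomal DNA unit was among the genes searched, so whether the repeated runs in regions 1, 2, 3 and 31 come from it was not tested. No list of artefact regions was applied.

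A CTCF match was the commonest feature of the members. It stood in the central 200 bp of 676 members, or 67.6%, against 41.6% of all distal regions, 40.3% of the other distal regions and 2.17% of windows 1000 bp away that touched no peak. An exact match stood in 30.5% of members and 15.8% of the other distal regions. The share moved with the library that set the order: it was 73.8% among the 1000 strongest of replicate 1 alone and 52.8% among those of replicate 2 alone. Both were above the 41.6% of all distal regions.

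The share of CTCF matches fell along the ranks only beyond the members. It was 68.6% at ranks 1001 to 2000 and 67.6% at ranks 2001 to 3000, then 44.6% at ranks 9001 to 10000 and 10.6% in the weakest regions, those past rank 21000. The members thus did not differ from the next 2000 regions in this share by more than 1 percentage point. Among the members themselves it was lower at the top: 63.2% of the best-ranked 500 held a match.

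**Figure D2:**
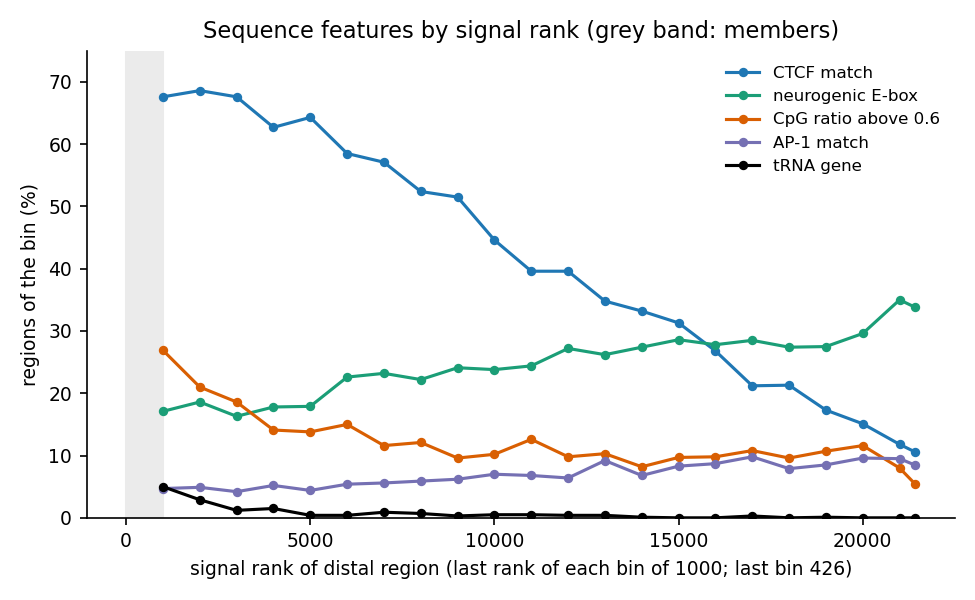
Share of regions (y axis, %) with a CTCF match, a neurogenic E-box, a CpG ratio above 0.6, an AP-1 match or a tRNA gene, by signal rank in bins of 1000 (x axis, last rank of the bin). The grey band marks the members, where the CTCF share was 67.6% and the E-box share 17.1%, and the last bin holds 10.6% and 33.8%.

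The members with a CTCF match had median signals of 9.75 in replicate 1 and 2.15 in replicate 2, and those without had 9.47 and 2.49. The median ratio of replicate 1 to replicate 2 was 4.50 with a match and 3.84 without. Members with a match were thus the higher ones by median in replicate 1 and the lower ones in replicate 2, with ranges that overlap. Region 14, in an exon of the antisense gene Gm45606 and 1.05 kb upstream of Slc43a2, an amino acid transporter gene, had signals of 21.3 and 4.19 (chromosome 11, 75530441 to 75530640). Region 17, in an intron of Camta1, a calmodulin-binding transcription activator gene, had 22.3 and 4.01 (chromosome 4, 151141621 to 151141840).

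Searched over whole regions, 683 members held a match, and its centre lay a median of 7 bp from the centre of the region and within 50 bp in 94.9%. Footprints of both libraries covered part of the match in 680 of the 683, or 99.6%, against 91.1% of the 8356 matched regions among the other distal ones. Footprints are found from the same cuts as the signal, so stronger regions give them more readily. The footprint on the match was a median of 33 bp wide in replicate 1 and 32 bp in replicate 2 in the members, and 31 and 24 bp in the others.

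Read in the direction of the match, the footprints were not symmetric. Bases at the centre were covered by footprints of both libraries in 99.1% of the members' matches. Upstream of the match, coverage dipped to 40.3% at 13 bases before its centre and rose to 54.2% at 20 bases before it. In regions 15, 17, 18 and 20 above, 1 protected stretch ran from there through the match. In regions 7 and 9 the protected stretch is in 2 pieces. How often the upstream part was a separate footprint was not counted. Downstream there was no such rise next to the match: coverage was 34.7% at 18 bases and 0.586% at 25 bases after the centre, and rose again to 41.6% at 65 bases. At 75 bases before the centre it was 24.5%. Away from the match these levels were set by replicate 2. At 60 bases before and after the centre, footprints of replicate 1 alone covered 78.0% and 88.6% of the members' matches, those of replicate 2 alone 17.6% and 32.7%, and those of both 16.8% and 31.9%. The matches of the other distal regions had rises at the same places at lower levels, with 27.9% at 20 bases before and 14.5% at 65 bases after.

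**Figure D3:**
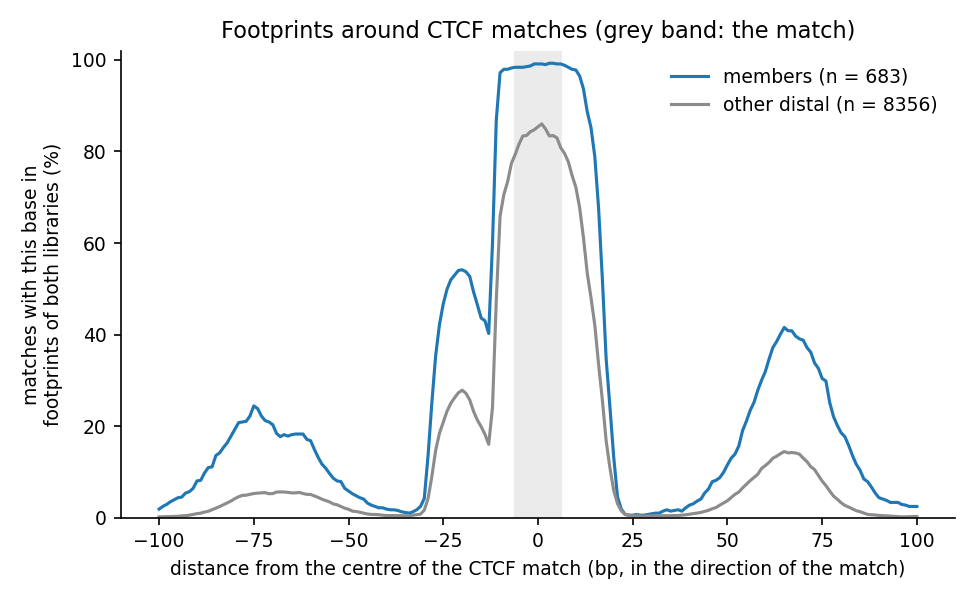
Share of CTCF matches (y axis, %) in which a base at a given distance from the centre of the match (x axis, bp, in the direction of the match) lay in footprints of both libraries, for 683 members and 8356 other distal regions. The grey band is the match itself, covered in 99.1% of members at its centre, and smaller rises stand at 20 bases before and 65 bases after it. The low level of the flanks is that of replicate 2: at 60 bases after the centre replicate 1 alone covered 88.6% of members and replicate 2 alone 32.7%.

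The commonest matched 13-letter words, left out for 1 chromosome, were spread thinly over 222 different words. CCACCAGGGGGCA stood in 28 of 662 members counted, or 4.23%, and in 2.41% of 8087 other matched regions. CCAGCAGGGGGCA stood in 23 members (3.47%, against 1.72%) and CCACCAGGTGGCG in 21 (3.17%, against 1.19%). Matches lay on the plus strand in 340 of the 683 members. Of 664 pairs of neighbouring matched members along a chromosome, 171 pointed towards each other, 169 away from each other and 324 the same way, at a median distance of 1.18 Mb, so that facing and opposed pairs were about equally common.

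tRNA genes overlapped 50 members, or 5.0%, against 0.728% of all distal regions and 0.519% of the others. The share was 3.2% among the 1000 strongest of replicate 1 alone and 6.1% among those of replicate 2 alone. By rank it was 2.9% at ranks 1001 to 2000 and 1.2% at ranks 2001 to 3000. This share thus fell directly past the members, where the share of CTCF matches did not.

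The tRNA members had a median signal of 9.03 in replicate 1, from 6.28 to 16.9, and of 2.70 in replicate 2, from 1.89 to 4.80, and all 50 had footprints in both libraries. The best ranked was region 15, whose tRNA-Leu gene and CTCF match are both printed above, with signals of 16.9 and 4.77 (chromosome 8, 94704061 to 94704260). It was followed by region 33 with tRNA-Thr AGT, at 14.0 and 4.80, and by region 36 with tRNA-Arg CCG, at 13.8 and 4.38. In all, 51 of the 386 autosomal tRNA genes of RefSeq, or 13.2%, overlapped members, 161 overlapped distal regions and 207 any shared region.

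The tRNA genes in members read codons of most amino acids. They belonged to 18 of the 20 annotated isotypes, with 6 genes for tRNA-Glu of 20, 5 for tRNA-Leu of 25, and 4 each for tRNA-Pro of 15, tRNA-Asn of 13 and tRNA-Ser of 22. Only 1 of 57 tRNA-Cys genes was among them. Chromosome 11 held 14 of the tRNA members and chromosome 13 held 10. The B box letters, chosen after the values were seen, stood in 28 of the 50, in no other member and in 0.439% of all distal regions.

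The tRNA members differed in form from the rest. Their median width was 240 bp, and that of the CTCF members 200 bp. The longest stretch around them with a cut-rate false discovery rate of 0.001 or less had a median of 648 bp in replicate 1 and 606 bp in replicate 2, against 303 bp in both libraries at CTCF members. Their median CpG ratio, the observed number of CpG pairs over that predicted from base composition, was 0.841, and 92.0% were above 0.6. All but 4 of the 50 held a 36-base stretch that recurs elsewhere, as tRNA genes have near copies, so tags may be shared between copies.

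The remaining 276 members had median signals of 9.67 and 2.47 and were rich in CpG. A CpG ratio above 0.6 was found in 42.0% of them, in 16.1% of the CTCF members and in 26.9% of all members, against 12.4% of all distal regions. The median GC content of the central 200 bp was 56.0% in the remaining members, 53.5% in the CTCF members and 51.0% in the other distal regions. A start annotated by RefSeq but not by the GENCODE classes used lay within 500 bp of 28 of the 276, or 10.1%. Over all members this was 59, or 5.9%, against 4.41% of all distal regions.

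Region 16, in an intron of the antisense gene Gm49490 and 0.725 kb upstream of C1qtnf6, a secreted protein gene, is such a case, since a RefSeq start lies within it. It had signals of 16.3 and 4.85. Region 19, 33.0 kb upstream of Pum2, a translational repressor gene, had 15.8 and 4.67, and region 22, 39.0 kb upstream of Ptma, had 15 and 5.04. All 3 are printed above.

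Of the 31 motifs searched, those with the highest share in members relative to the other distal regions were mostly short CpG-containing words of broadly expressed factors. NRF1, a regulator of mitochondrial and housekeeping genes (GCGCATGCG), matched 15 members, or 1.5%, against 0.467% of all distal regions and 0.416% of the others, a ratio of 3.61. EGR (GCGTGGGCG), read by activity-induced zinc-finger factors, matched 6 members, or 0.6%, against 0.252%, and CRE (TGACGTCA), the site of CREB, matched 11, or 1.1%, against 0.499%. ETS (CCGGAAG) matched 2.8% against 1.58%, the ROR/REV-ERB element (TAGGTCA) 1.8% against 1.08%, and the SP/KLF GC box (GGGCGGG) 8.4% against 5.13%. The full NFI site (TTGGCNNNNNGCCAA) matched 2 members, or 0.2%, against 0.131%. The ratio for CTCF was 1.68, the second lowest of these 8. The members' higher GC content was not matched in these shares, and its part in them was not tested.

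The same words stood out among the 276 members with neither CTCF match nor tRNA gene, set beside the 12084 other such distal regions. The GC box matched 15.2% against 6.47%, NRF1 3.62% against 0.629% and CRE 3.26% against 0.687%. These are in large part the holders counted above, as 10 of the 15 for NRF1 and 9 of the 11 for CRE are among the 276. A CpG ratio above 0.6 was found in 42.0% of the 276 and in 1788 of the 12084. Its part in these shares was not tested. The best-ranked holders of NRF1 and CRE among these 276 members are printed, with exons, repeated stretches and 1 chromosome left out. Both words stand inside a footprint of both libraries, at bases 23 to 42 and 19 to 41 of the 60 printed. The plus strand is shown, with the matches in capitals.
NRF1 in region 27, 33.9 kb upstream of Foxk1 (chr5:142367372-142367431): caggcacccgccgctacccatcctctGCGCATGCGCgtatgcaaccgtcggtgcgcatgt
CRE in region 144, in an intron of Mxi1 (chr19:53314304-53314363): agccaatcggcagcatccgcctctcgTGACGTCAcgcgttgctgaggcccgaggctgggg
Region 27 had signals of 14.2 and 4.83, and region 144 had 10.4 and 4.17.

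Both E-boxes, AP-1 and the homeobox core matched a smaller share of members than of all distal regions, unlike EGR and CRE above. The neurogenic E-box (CAGATG), read by NEUROD and related factors, matched 171 members, or 17.1%, against 24.6% of all distal regions, and the other E-box searched (CAGCTG) matched 13% against 17.6%. AP-1 (TGANTCA), bound by FOS and JUN, matched 4.7% against 6.94%, and the homeobox core (TAATTA) 1.4% against 3.55%. These 4 were singled out after their values were seen, and GC content was not matched here either. By rank the neurogenic E-box rose from 17.1% in members to 33.8% in the weakest regions. Among regions with neither CTCF match nor tRNA gene it matched 12.3% of members and 28.3% of the others, so its lower share was also present without them. REST (CAGCACCNNGGACA), the glucocorticoid element (GAACANNNTGTTC) and ZNF143 (ACTACAATT) matched no member, against 0.056%, 0.056% and 0.0793% of all distal regions. At such shares fewer than 1 match would stand in 1000 regions.

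The other motifs searched were the KLF CACCC box (CCACACCC), NFY (AGCCAAT), the clock E-box (CACGTG), TEAD (GGAATGT), the T-box (AGGTGTGA), YY1 (AAGATGGC), RUNX (AACCACA), forkhead (TGTTTAC), RFX (GTTGCCA), SOX (ACAATGG), TCF/LEF (ATCAAAG), PU.1 (GAGGAAGT), NR4A (AAAGGTCA), the POU octamer (ATGCAAAT), STAT (TTCCNGGAA) and MEF2, all sought on both strands. Their shares in members ran from 0.2% to 4.2%, at ratios of 0.257 to 1.57. The EGR word and the GC box share the letters GGGCG, so that a longer GC-rich stretch can match both.

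**Figure D4:**
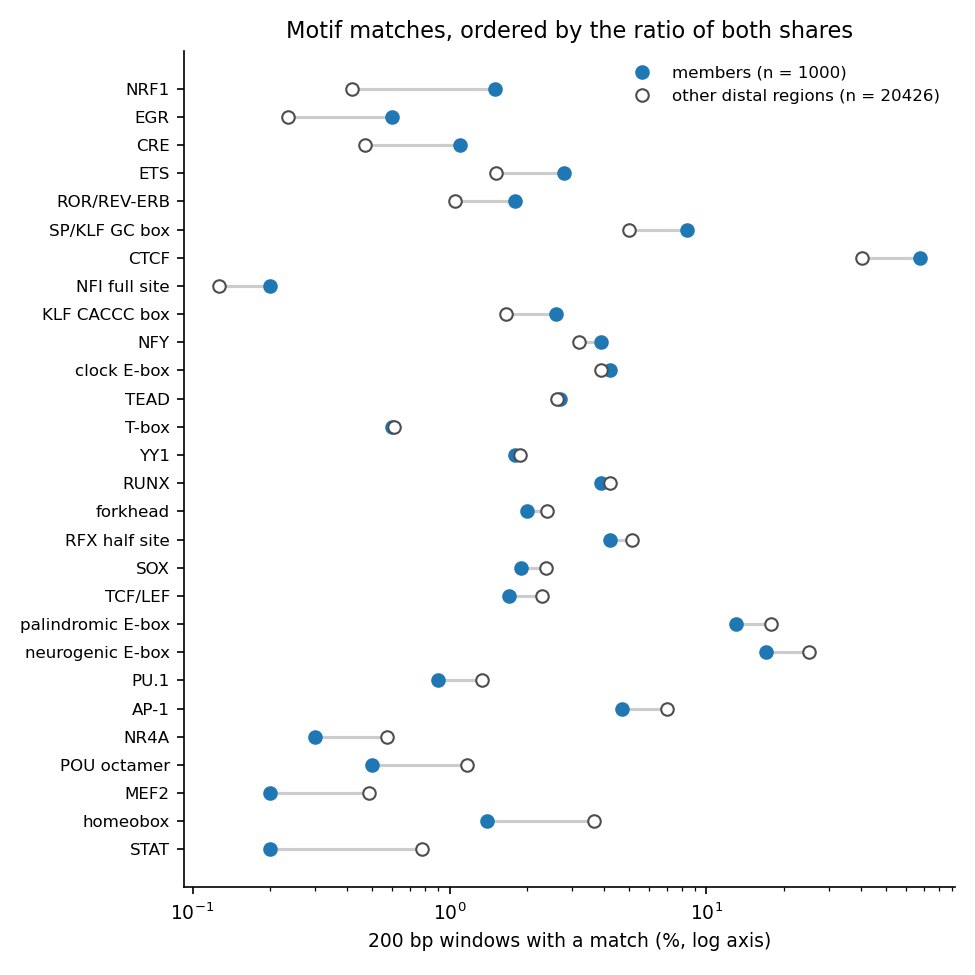
Share of 200 bp windows with a match (x axis, %, log axis) to each motif that matched at least 1 member, for members (filled) and other distal regions (open), ordered by the ratio of both shares. NRF1 stands at the top with 1.5% against 0.416%, and the E-boxes, AP-1 and the homeobox core lie on the side where members have the lower share.

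The median distance of members to the nearest protein-coding start was 12.2 kb (interquartile range 4.22 to 30.3 kb), against 20.1 kb (5.82 to 63.3 kb) for the other distal regions. The start was within 10 kb for 44.7% of members and 34.4% of the others, and farther than 100 kb for 6.3% and 17.5%. The regions next in rank lay as near as the members, with medians of 12.03 kb at ranks 1001 to 2000 and 11.6 kb at ranks 2001 to 3000. With replicate 2 alone setting the order the median was 10.8 kb, and with replicate 1 alone it was 12.3 kb.

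Introns of protein-coding and long noncoding RNA genes held 336 members, or 33.6%, against 42.4% of all distal regions, exons held 9.4% against 9.12%, and intergenic sequence held 57.0% against 48.5%. The lower intronic share was most marked at tRNA members, of which 4 of 50 were intronic. CTCF members stood at 37.6% and the remaining members at 28.3%. By chromosome, members made up between 3.13% of the distal regions (chromosome 14) and 6.41% (chromosome 7).

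Members and other distal regions both had a median width of 200 bp, while footprints were more frequent in members. A footprint in each library was present in all but 1 member, or 99.9%, against 92.7% of all distal regions. Footprints of both libraries overlapped each other in 99.9% as well, against 83.6%. Members at least 180 and under 220 bp wide held a median of 4 footprints in replicate 1 and 3 in replicate 2, and other distal regions of that width held 3 and 2. These counts come from the same cuts as the signal and are given as a description.

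The nearest other member was a median of 366 kb away, and 68 members, or 6.8%, had another within 10 kb. Among all 21426 distal regions, which lie closer by their number alone, the median was 25.9 kb and 30.3% had another within 10 kb. The start of 932 genes was nearest to a member, or 4.48% of the 20807 autosomal protein-coding genes. Ptma, the gene of the nuclear protein prothymosin alpha, had the most, with 5 members on chromosome 1. Their signals were 15 and 5.04 at region 22, 13.6 and 4.82 at region 35 (86525281 to 86525540, 1.19 kb upstream), 11.01 and 3.19 at region 140, 11.2 and 2.56 at region 204 and 8.67 and 2.78 at region 359. All but region 22 held a CTCF match, and they ran from 39.0 kb upstream to 5.65 kb downstream of the start.

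Each of 8 further genes had 3 members. Igf1r, the receptor of insulin-like growth factor 1, had 3 members, none with a CTCF match. They lay 19.3, 18.4 and 0.927 kb upstream of the nearest annotated transcript start of the gene. That start was not the same for all 3: the first 2 lay in an intron, and the third was intergenic. The strongest had signals of 9.23 and 3.66 (chromosome 7, 68129101 to 68129340). Trim27, a ubiquitin ligase gene on chromosome 13, had members 10.2, 10.7 and 32.6 kb downstream, of which 2 held tRNA genes. Zfp516, a zinc-finger gene, Sept9, a septin gene, and Atoh8, a basic helix-loop-helix factor gene, each had 2 members with a CTCF match among their 3, and Lrrc74a had 3. The highest signal in replicate 1 among these was at a Sept9 intron, with 15.3 and 2.72 (chromosome 11, 117238241 to 117238460).

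The 3 members nearest to 4930467E23Rik and the 3 nearest to Klrb1c, a natural killer cell receptor gene, were in part repeated, at 54.6% to 76.4% and 4.87% to 44.9% of their 36-base stretches. Jarid2, the last of the 10 genes, had 2 members, region 10 and region 324, both with repeated stretches, at signals of 27.3 and 4.84 and of 8.90 and 2.78. Nearest start is a naming device, and no contact between region and gene was measured.

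Of 281 genes in 13 lists of cell types and functions, 30 were nearest to a member. The lists with the largest shares were the circadian clock genes, with 6 of 19, the excitatory hippocampal neuron genes, with 6 of 20, and the forebrain factors, with 6 of 24, beside 4.48% of all genes. Genes of these lists were also often nearest to any distal region: 17 of 19, 16 of 20 and 23 of 24, against 45.4% of all genes. With replicate 2 left out of the ranking, 3 of 20 excitatory neuron genes were counted.

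The clock genes were Hlf, Cry1, Nfil3, Arntl, Bhlhe41 and Bhlhe40, which encode activators and repressors of the daily transcription cycle. Region 105, 27.1 kb upstream of Hlf, a PAR-domain activator, had signals of 11.8 and 3.31 (chromosome 11, 90417981 to 90418260) and held no CTCF match but matches to the clock E-box, NRF1, the GC box and the ROR/REV-ERB element. Region 178, in exonic sequence 35.98 kb upstream of Cry1, a repressor of CLOCK and BMAL1, had 11.6 and 2.63 (chromosome 10, 85221041 to 85221200) and held a CTCF match. A clock E-box also stood in the member 9.34 kb downstream of Bhlhe41, and a ROR/REV-ERB element in that 63.7 kb upstream of Arntl, the gene of BMAL1. Over all windows the clock E-box matched 4.2% of members and 3.90% of all distal regions.

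Among forebrain factors, Nfix had region 67, 10.6 kb upstream, with signals of 12.8 and 3.42 (chromosome 8, 84810961 to 84811180), and Sox4 had region 188, 4.17 kb upstream, with 11.4 and 2.62 (chromosome 13, 28957881 to 28958080), both with a CTCF match. Emx2, Nfia, Tcf4 and Mef2c were the others. Mef2c, a factor of activity-dependent synapse refinement, had 2 members, 2.09 and 62.2 kb downstream of the nearest of its transcript starts, both with a CTCF match.

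Among excitatory neuron genes, Slc17a7, the vesicular glutamate transporter VGLUT1, had region 455, 1.45 kb upstream, with 8.14 and 2.84 (chromosome 7, 45162121 to 45162500). That region held both a CTCF match and a neurogenic E-box, while the Slc17a7 start itself had no stricter peak in both libraries. Grin2b, Lingo1, Rtn4r and Sv2b were also among them, of which Lingo1 and Rtn4r had CTCF matches.

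The other lists had few members. Synaptic genes were 3 of 28, with Gphn at the repeated region 31, Nrxn2, a presynaptic adhesion gene, at 9.38 and 1.73, and Shank1. Oligodendrocyte genes were 2 of 25, the myelin genes Mobp, at 11.7 and 2.29 in an intron, and Opalin, at 11.98 and 2.27, each with a CTCF match. Sema5a (dentate granule cell, 1 of 18), Nos1 (GABAergic interneuron, 1 of 23), Aldh1l1 (astrocyte, 1 of 20), Spi1 (microglia, 1 of 21), Pdgfrb (vascular, 1 of 20) and Nr4a1 (activity-regulated, 1 of 28) were each the single gene of their list, with shares of 3.57% to 5.56% beside the 4.48% of all genes. The members near Sema5a, Nos1, Aldh1l1, Spi1, Pdgfrb and Nr4a1 held CTCF matches. Of all members 67.6% held such a match, and no link between list and match was tested.

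The activity-regulated list, which holds the immediate-early genes that neurons switch on within minutes of firing, depended on the library that set the order, as seen after the counts were made. Among the 1000 strongest distal regions of replicate 2 alone, 9 of its 28 genes were nearest to a region, beside 4.35% of all genes, and among those of replicate 1 alone none was, beside 4.54%. The 9 were Fos, Fosb, Junb, Ier2, Nr4a1, Nr4a3, Gadd45b, Inhba and Per1. The region 11.07 kb downstream of Fos, the gene of the FOS subunit of AP-1, had signals of 6.24 in replicate 1 and 2.57 in replicate 2 (chromosome 12, 85485981 to 85486240), which are rank 2461 and rank 348 of the distal regions. That 1.11 kb upstream of Ier2, another immediate-early gene, had 5.56 and 2.83, at ranks 3166 and 221 (chromosome 8, 84663961 to 84664180). Only the region 13.3 kb upstream of Nr4a1, an orphan nuclear receptor gene, was a member, with 6.94 and 2.19. Of the other lists, astrocyte genes gave 0 and 2 in replicate 2 and replicate 1 alone, whereas the clock genes gave 8 and 6.

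**Figure D5:**
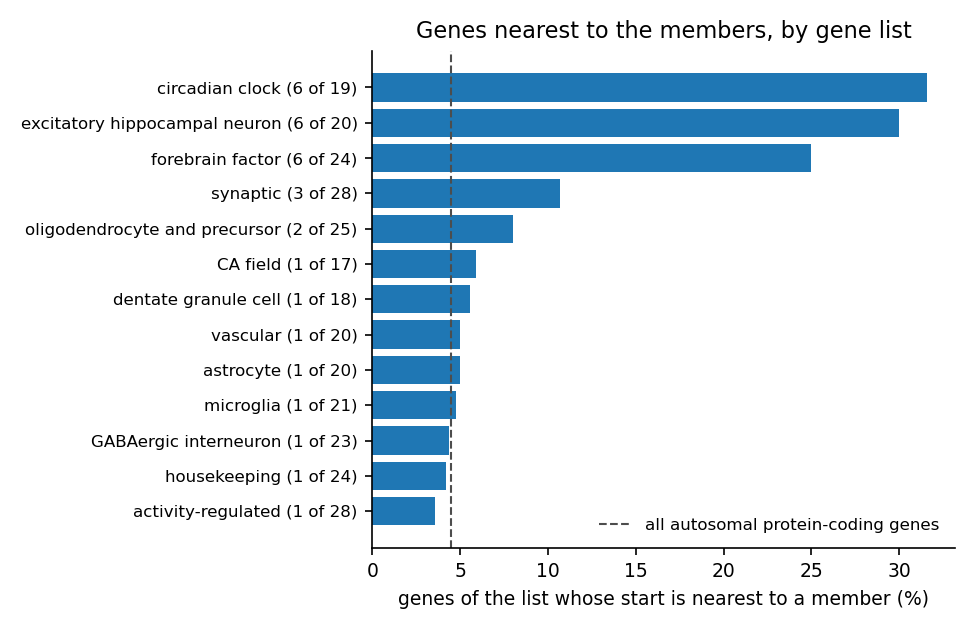
Share of the genes of each list whose start is the nearest to a member (x axis, %), with the number of genes, and the share of all autosomal protein-coding genes, 4.48%, as a dashed line. The clock, excitatory neuron and forebrain factor lists have 6 genes each, and the other lists have 1 to 3.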

How the data were processed

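DNase-seq of 2 libraries of 1 group was used. Per the labels, coordinates are on mm10. The authors deposited for each library 2 peak lists with a signal per peak, whose scaling is not stated, footprints and a cut-rate p-value (false discovery rate, FDR) per stretch, listed up to 0.05. The footprints' deposited FDR is constant at 0.01. The aligner, the peak caller and any filters: not given in the sources used here.

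From these, shared regions (sets of overlapping peaks of both libraries), distances, 36-base stretches recurring in the primary assembly, and motifs in the 200 bp around each region's centre were computed with Python 3.11.15, numpy 2.4.6, pandas 2.3.3 and numba, and each search was tested on simulated data. Genes came from GENCODE M21, tRNA genes and the genome from RefSeq GRCm38.p6. tRNA overlaps were added after the data were seen. No test was made, as there is 1 group.

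Members and lists were chosen with earlier results of these data known. Named were the 10 best-ranked members, the 5 best with a CTCF match, the 5 best with neither match nor repeated stretch, ranks 999 to 1002, the 10 genes nearest to most members, the 2 best-ranked genes per list, and the 8 motifs with the highest and 3 with the lowest ratio of shares. Precision is limited by having 2 libraries of unknown depth. Alternatives changed the ranking, distance, gene classes, peak list, number kept, repeats and motif search. Some genes that the naming rule selects are not reported here.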

Additional observations from a re-analysis of the deposited data

How the results depend on the processing

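The limits are those of 2 libraries of 1 group with unknown depth. No paired analysis was possible because both libraries belong to the same group. A share counts as moved where it left the exact 95% binomial interval of the reported share, a median where it moved by more than the SD of the 2 single-library medians, and a count where it moved over 1.5 times. The binomial interval takes regions as independent draws and serves only as a yardstick. It does not measure the spread between the libraries, and the alternatives share many members with the main set. Ranking by 1 library alone gave CTCF shares of 52.8% to 73.8%, tRNA shares of 3.2% to 6.1% and median distances of 10.75 to 12.31 kb. The tRNA share and its alternatives were added after the data were seen. Keeping 500 regions gave a CTCF share of 63.2%, a repeated share of 3.0% and 19 list genes, and keeping 2000 gave 52 list genes, while the share of all genes nearest to a kept region was 2.28% and 8.46%. An exact motif gave 30.5%, a distance of 2000 bp from starts gave a median of 15.64 kb, and leaving out repeated regions gave a repeated share of 0.0%, by construction. The footprint share ran from 99.8% to 99.95% and the intron share from 32.4% to 35.7% over their alternatives, within the intervals. The longer peak lists kept all members but 1, and leaving out repeated regions kept 985. Over the alternatives the circadian list had 4 to 8 genes, the forebrain factor list 5 to 9, the excitatory neuron list 2 to 7 and the activity-regulated list 0 to 9, its highest value being that of replicate 2 alone. The share of all genes counted ran from 2.28% to 10.8% over the same settings, so these ranges follow in part the number of genes counted.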

Other observations

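The regions on which the libraries differ in rank were unlike in sequence. The 472 regions among the 1000 strongest of replicate 1 but not of replicate 2 held a CTCF match in 83.7%, a CpG ratio above 0.6 in 12.3% and a tRNA gene in 0.212%. The 472 among the strongest of replicate 2 but not of replicate 1 held a CTCF match in 39.2%, such a CpG ratio in 45.3% and a tRNA gene in 6.36%, and lay a median of 9.65 kb from the nearest protein-coding start, against 13.4 kb. The neurogenic E-box stood in 18.0% and 18.2% of them. The sets were chosen by signal, and what differed between the libraries was not tested.

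The 12 regions nearest to activity-regulated genes among the 1000 strongest of replicate 2 had signals of 4.04 to 6.94 in replicate 1 and of 2.00 to 2.83 in replicate 2. Besides those named in the report they included regions 1.20 kb upstream of Junb (4.48 and 2.12), 1.49 kb upstream of Nr4a3 (4.04 and 2.14), 1.23 kb upstream of Gadd45b (5.52 and 2.04) and 252 kb upstream of Inhba (4.13 and 2.00). That 1.67 kb upstream of Per1, a clock gene that is also activity-induced, was the single one with a CRE match (5.82 and 2.31). Only 2 of the 12, near Nr4a1 and Gadd45b, held a CTCF match, beside 52.8% of the 1000 strongest of replicate 2, and 9 had a CpG ratio above 0.6, beside 37.6%. None held an AP-1 match, which 6.94% of all distal regions do, so 12 regions are too few to read that count. Regions rich in CpG and poor in CTCF matches ranked higher in replicate 2 in general, as the shares above show, and how much of the place of the activity-regulated genes goes with that was not tested.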
